A study of Mus musculus with 22 samples.

Results

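N4-acetylcytidine (ac4C) peaks in mouse kidney RNA were examined for the transcripts that the peak annotation did not class as protein coding: antisense RNAs, isoforms marked for nonsense-mediated decay, gene models awaiting experimental proof, small structured RNAs and pseudogenes. Of the 9857 rows of the peak table, 762 (7.73%) carried such a transcript class, 382 of them from the peak list of db/db mice and 380 from the list of db/m mice. Where a db/m row overlapped a db/db row on the same chromosome and strand, the db/db row was kept, which left 589 noncoding peaks in 524 genes and 18 classes. Joined by the same rule, the protein coding rows gave 6061 peaks, which are used below for comparison.

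ac4C is an acetylated cytidine that the acetyltransferase NAT10 places on RNA. Its best known carriers are themselves noncoding, namely the 18S ribosomal RNA and certain transfer RNAs, and it has also been mapped in messenger RNA. Nonsense-mediated decay (NMD) isoforms are products of coding genes whose reading frame ends early, so that the cell's surveillance pathway degrades them. Antisense RNAs are transcribed from the strand opposite another gene. TEC transcripts are provisional gene models that await experimental proof. The 7SL RNAs form the backbone of the signal recognition particle, and RMRP and RPPH1 are the catalytic RNAs of RNase MRP and RNase P.

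Tissue was taken from the kidneys of 6 db/db and 5 db/m animals. The first are homozygous for a defective leptin receptor gene and serve as a model of type 2 diabetes, and the second are heterozygous controls. All were male by the methods of the study. No injection or drug was named in the labels of these samples, and the age at which these kidneys were taken was not given in the sources used here. Each animal gave an immunoprecipitated (IP) library, made, by the methods of the study, from poly(A)-selected and fragmented RNA with an ac4C antibody, and an RNA-seq library that served as its input. The labels name total RNA as the molecule and describe no poly(A) selection, so how far RNAs without a poly(A) tail were kept is not known. The libraries thus report whole kidney, and in bulk tissue fewer cells of a type and less RNA per cell cannot be told apart. Reads inside the listed peaks numbered 7577171 to 9862426 per db/db IP library, 9125099 to 10293757 per db/m IP library, 3160992 to 3352535 per db/db RNA-seq library and 3151035 to 3265239 per db/m RNA-seq library.

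Several noncoding peaks lay near the annotated starts of genes, and 4 windows around such starts are shown as examples of the local sequence. Each window is RefSeq sequence of mouse build GRCm38.p6, from 250 bases before to 50 bases after the annotated start, on the strand of the named gene. Capitals mark the bases under a noncoding peak. The window of Gm33587, chr8:12756847-12757146 on the minus strand, holds 61 bases of the peak assigned to an NMD isoform of Atp11a on the other strand. The window of Tmem25, chr9:44799198-44799497 on the minus strand, holds 112 bases under the Tmem25 NMD peak and the antisense peak RP23-444K20.5. The windows of Rab20, chr8:11478591-11478890 on the minus strand, and Gng12, chr6:66896147-66896446 on the plus strand, hold 57 and 45 bases of peaks in the divergent transcripts E230013L22Rik and 4930597O21Rik. The IP log2 fold change of db/db over db/m was 0.19 in E230013L22Rik and 0.08 in 4930597O21Rik (edgeR adjusted p = 0.785 and 0.912), while the Atp11a, Tmem25 and RP23-444K20.5 peaks are described later.
Gm33587: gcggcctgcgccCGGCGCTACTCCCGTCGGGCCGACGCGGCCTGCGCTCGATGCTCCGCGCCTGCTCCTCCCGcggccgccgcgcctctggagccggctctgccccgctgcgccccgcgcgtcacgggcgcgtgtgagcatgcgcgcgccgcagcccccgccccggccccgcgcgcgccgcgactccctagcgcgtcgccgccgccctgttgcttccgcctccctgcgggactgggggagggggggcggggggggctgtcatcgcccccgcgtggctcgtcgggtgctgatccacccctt
Tmem25: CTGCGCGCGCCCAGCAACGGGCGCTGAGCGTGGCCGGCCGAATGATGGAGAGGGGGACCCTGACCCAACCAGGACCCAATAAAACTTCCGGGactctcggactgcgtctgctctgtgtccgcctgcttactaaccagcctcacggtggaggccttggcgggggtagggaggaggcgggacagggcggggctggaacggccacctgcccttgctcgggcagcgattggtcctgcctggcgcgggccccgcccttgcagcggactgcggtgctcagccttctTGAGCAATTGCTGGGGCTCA
Rab20: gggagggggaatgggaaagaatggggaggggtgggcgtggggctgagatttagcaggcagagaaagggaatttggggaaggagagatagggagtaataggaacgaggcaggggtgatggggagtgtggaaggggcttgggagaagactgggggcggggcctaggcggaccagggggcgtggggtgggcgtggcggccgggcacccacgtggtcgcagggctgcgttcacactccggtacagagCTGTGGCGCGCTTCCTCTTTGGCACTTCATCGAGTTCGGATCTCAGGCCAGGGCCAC
Gng12: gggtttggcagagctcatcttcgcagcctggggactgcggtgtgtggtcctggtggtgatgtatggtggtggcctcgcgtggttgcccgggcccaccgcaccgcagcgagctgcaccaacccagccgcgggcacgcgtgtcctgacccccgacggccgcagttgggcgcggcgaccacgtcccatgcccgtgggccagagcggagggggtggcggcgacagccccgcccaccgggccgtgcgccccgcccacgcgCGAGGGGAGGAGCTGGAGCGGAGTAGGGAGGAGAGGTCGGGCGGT

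All 4 windows were rich in G and C, with 81%, 68%, 64.3% and 74% of bases and 52, 24, 16 and 34 CG pairs in the order listed. Mature microRNAs lay inside 3 of the NMD peaks, and their sequences are shown because reads of such a peak can include the precursor. Capitals mark the seed, bases 2 to 8. The Ppp1r7 peak held both arms of one hairpin on chromosome 1, the Egfl7 peak held the endothelial microRNA miR-126a-3p on chromosome 2, and the Arglu1 peak held miR-7654-3p on chromosome 8. The 4 seeds differed from one another.
mmu-miR-6902-5p: uUCCUCACauugucacaugaag
mmu-miR-6902-3p: cCAUGUGAuguguggguucag
mmu-miR-126a-3p: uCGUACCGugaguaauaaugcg
mmu-miR-7654-3p: cGAGCGGGagcgcgccucgucc

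Antisense, NMD and TEC transcripts made up most of the noncoding peaks. There were 193 antisense peaks, 180 NMD peaks and 166 TEC peaks. The remainder comprised 29 other long noncoding RNA peaks, 15 small RNA peaks and 6 pseudogene peaks. Among the other long noncoding RNAs were 18 sense intronic and 6 bidirectional promoter transcripts. The small RNAs were 8 of the miscellaneous class that includes 7SL, 2 small Cajal body RNAs, 2 mitochondrial transfer RNAs, 2 ribozymes and 1 ribosomal RNA. Some rows repeated a site, since 24 noncoding peaks overlapped another noncoding peak on either strand. The antisense gene 6330403L08Rik on chromosome 5, for example, had near-identical rows that differed by 1 base.

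**Figure D1:**
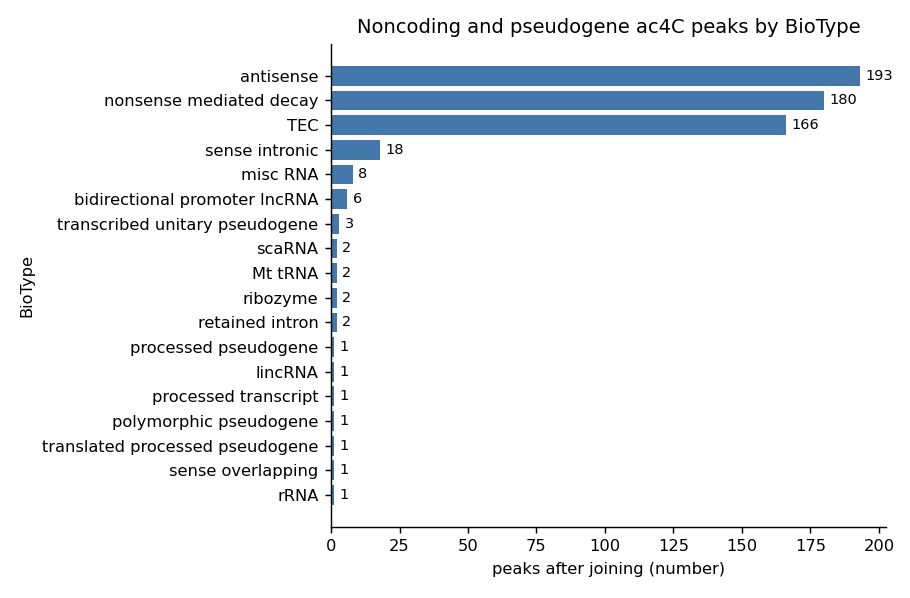
Number of noncoding ac4C peaks after joining overlapping rows (x axis, bars) in each of the 18 transcript classes of the annotation (y axis). Antisense, NMD and TEC peaks are the most numerous with 193, 180 and 166, and no other class exceeds 18.

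Most noncoding peaks were listed in 1 genotype. Only 175 of 589 (29.7%) were listed in both, against 3035 of 6061 (50.1%) coding peaks, while 207 were listed in db/db and 207 in db/m alone. Alone here refers to noncoding rows, and 5 db/m peaks overlapped a protein coding row of the db/db list on the same strand. Overlaps the other way were not counted, but the Pmm1 and Clcn2 peaks of the db/db list did overlap coding rows of the db/m list. NMD peaks came nearest to the coding peaks with 84 of 180 (46.7%) in both lists. The share was 26.4% for antisense and 21.7% for TEC peaks. In db/db alone 77 TEC peaks were listed against 53 in db/m alone, and 8 small RNA peaks against 5. The other classes leaned to db/m alone, with 44 against 52 NMD and 65 against 77 antisense peaks. There were 12 against 15 other long noncoding RNA peaks and 1 against 5 pseudogene peaks. Many noncoding peaks had weak support as peaks. The false discovery rate that the authors' peak caller gave was over 0.05 for 239 noncoding peaks (40.6%) and for 19.5% of coding peaks. It was over 0.05 for 13.3% of NMD, 49.7% of antisense and 54.8% of TEC peaks.

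Read depth divided the noncoding peaks into NMD peaks as deep as coding ones and a far shallower remainder. Over the 11 animals together, the median NMD peak held 2110 IP and 570 RNA-seq reads, beside 1768 and 449 for coding peaks. The median antisense peak held 40 IP and 8 RNA-seq reads, and the median TEC peak 21.5 and 3. Fewer than 50 IP reads over all animals were found in 288 noncoding peaks (48.9%), which were 20% of NMD, 54.4% of antisense and 70.5% of TEC peaks. In 336 noncoding peaks at least 1 animal had no IP read, and in 5 none of the animals had any. An IP value of 3 reads, the most that a count of 0 allows, was 0.305 to 0.362 CPM, the unit that divides a peak's reads by all reads in peaks of its library after TMM scaling between libraries. In RNA-seq it was 0.857 to 0.982 CPM. These limits cover counting error only. Peak lengths also differed, with a median of 289 bases for NMD, 150 for antisense and 149 for TEC peaks, and 36.7% of NMD peaks spanned over 1000 bases.

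**Figure D2:**
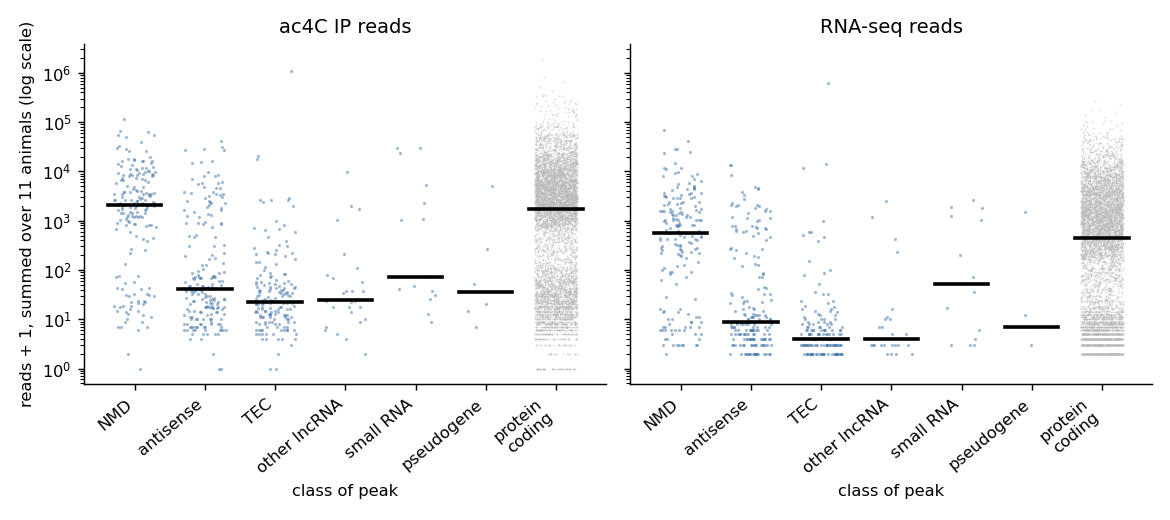
Reads per peak plus 1, summed over 11 animals (y axis, log scale), by class (x axis), for IP and RNA-seq libraries; each point is a peak and each bar the median of its class. NMD peaks (median 2110 IP reads) sit with coding peaks (1768), and antisense (40) and TEC peaks (21.5) lie far lower.

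Noncoding peaks took 2.54% to 3.61% of the IP reads in peaks of a db/db animal and 2.31% to 3.14% of those of a db/m animal. In RNA-seq the shares were 3.14% to 4.61% and 2.77% to 3.88%. A single TEC peak, Gm37376 at chr19:5801941-5802393 on the plus strand, held 1109432 IP and 618944 RNA-seq reads. RefSeq places Malat1, an abundant nuclear long noncoding RNA, there on the other strand, and the table had no row named Malat1. Without Gm37376, the shares narrowed to 1.64% to 1.94% of IP reads in db/db and 1.64% to 1.87% in db/m, and to 1.70% to 1.97% and 1.69% to 1.81% of RNA-seq reads. The Gm37376 peak itself overlapped between genotypes in IP reads, with a log2 fold change of 0.13 (SE 0.25, edgeR adjusted p = 0.839).

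Antisense peaks took a larger share of RNA-seq reads in every db/db animal than in any db/m animal. The db/db shares ranged from 0.285% to 0.325% with a median of 0.295%, and the db/m shares from 0.234% to 0.269%. In IP libraries the ranges were 0.345% to 0.417% and 0.300% to 0.351%, which overlapped. A pair of peaks, Gm16537 and Gm44732, carried most of the difference in mean share. Without them, an alternative chosen after seeing the data, the difference of means fell from 0.0481 to 0.0115 percentage points in RNA-seq and from 0.0692 to 0.0169 in IP libraries, and the ranges overlapped in both.

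Some noncoding peaks overlapped a row on the other strand with a near-equal number of reads. Of the noncoding peaks, 82 (13.9%) had a row on the other strand, against 162 of 6061 coding peaks (2.67%). They were 62 antisense, 12 TEC, 7 NMD and 1 other long noncoding RNA peaks, and the opposite row was protein coding in 72. In 16 of the 82, at least 90% of both peaks was shared, and in 13 of the 16 the IP reads of both lay within 10% of each other. They made up 14 distinct pairs of genes, 11 of them within 10%, because RP23-390K13.6 and RP23-390K13.7 lie opposite each other and 6330403L08Rik had repeated rows. The Gm44732 peak held 41262 IP and 2092 RNA-seq reads, and the row of Cdkn1c, a cell cycle inhibitor gene, on the other strand held 41311 and 2107. The Gm43808 peak and its Tmem214 partner both held 2384 IP reads. The 1700101I11Rik peak held 18274 IP reads and the autophagy gene Gabarapl1 17452. The exceptions were 1700120B22Rik with 60 against 35 reads for Herc4, A630072M18Rik with 908 against 785 for Rsbn1l, and Hoxb3os with 168 against 146 for Hoxb3. With less overlap, Gm44729 covered 74.6% of the row of the selenophosphate synthetase gene Sephs2 and held 20423 IP reads beside 20911. Whether the 2 rows of such a pair count the same reads was not tested.

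**Figure D3:**
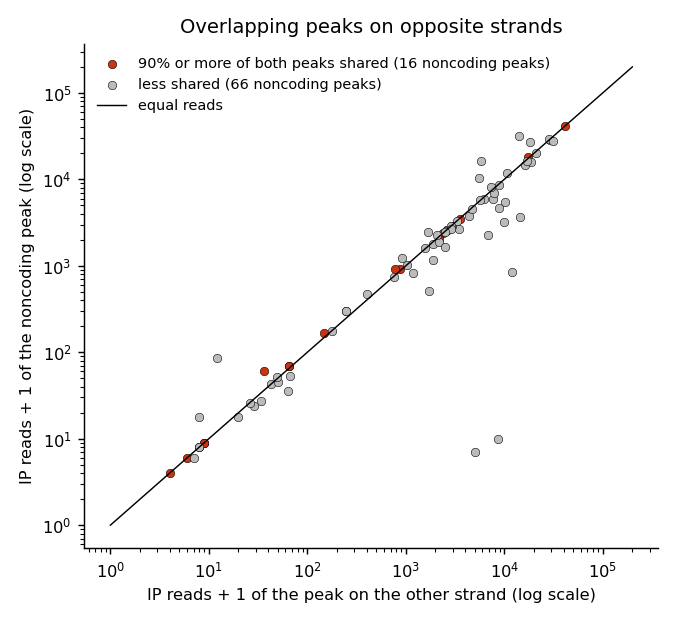
IP reads plus 1, summed over 11 animals, of 82 noncoding peaks (y axis) and of the overlapping row on the other strand (x axis), both on log scales, with a line of equal reads. Among the 16 noncoding peaks that share at least 90% of both peaks (red) 13 differ by no more than 10%, while some of the others (grey) lie far from the line.

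The overlap with coding genes was wider in the annotation than in the peak table. By RefSeq gene coordinates, at least 128 of 193 antisense peaks (66.3%) and 31 of 166 TEC peaks (18.7%) lay on a coding gene of the other strand. The strand was known for 27025 of 49997 RefSeq genes, and a further 32 antisense and 21 TEC peaks lay on a coding gene whose strand was not. In 75 of the 128 and 23 of the 31, no row of the table covered the other strand. RefSeq held the symbol of 316 noncoding peaks, and classed 105 antisense peaks as long noncoding RNA and 171 of the 180 NMD peaks as protein coding, since it classes by gene. Of the 157 genes with an NMD peak, 62 also had a protein coding row, and 13 NMD peaks overlapped a coding row on the same strand.

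Windows around gene starts were compared as whole windows, since the base composition of the peaks themselves was not measured. An annotated window of 250 bases before to 50 after a start overlapped 89 noncoding peaks (15.1%) and 765 coding peaks (12.6%). The median G and C content was 65% over the 106 windows under noncoding peaks, 65% over the 935 under coding peaks and 52.7% over all 32851 windows. It was 65.7% under NMD, 64.3% under antisense and 66.7% under TEC peaks. The motif CCGCCG, or CGGCGG on the other strand, was found in 49 of the 106 windows (46.2%), in 49.0% of windows under coding peaks and in 18.7% of all windows. No test was made of these shares, and a match says nothing of a site in use.

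Structured RNAs were few. Of the 15 small RNA peaks, 7 held fewer than 50 IP reads and the median held 71. The 7SL copies Rn7s1 (chr12:69159295-69159474), Rn7s2 (chr12:69361302-69361421) and Rn7s6 (chr6:69516339-69516484) held 30019, 29284 and 23487 IP reads over 11 animals and 1885, 1774 and 1019 RNA-seq reads. They are near-identical copies, so how reads were split among them is uncertain. The false discovery rate of the authors' peak caller was 9.77e-05 for Rn7s1, but 0.714 for Rn7s2 and 0.185 for Rn7s6. In Rn7s1, the db/db animals ranged from 199 to 502 CPM in IP with a median of 349, and the db/m animals from 138 to 328. The genotypes overlapped. The log2 fold changes in IP were 0.45 for Rn7s1, 0.41 for Rn7s2 and 0.28 for Rn7s6 (edgeR adjusted p = 0.241, 0.290 and 0.499).

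On chromosome 17, the locus annotated as Rn18s-rs5 and AY036118 carries sequence related to 18S ribosomal RNA. The AY036118 peak held 9690 IP and 2490 RNA-seq reads and the Rn18s-rs5 peak 5401 and 2573. AY036118 gave 96.0 ± 28.6 CPM in db/db IP libraries (SD, n = 6) and 99.1 ± 13.9 in db/m (SD, n = 5), a log2 fold change of -0.05 (edgeR adjusted p = 0.942). The mitochondrial phenylalanine transfer RNA mt-Tf, MT:1-68, held 1091 IP reads but 16 RNA-seq reads. Its IP values were 0.115 to 14.2 CPM in db/db with a median of 5.53, and 16.5, 19.7, 20.3, 15.2 and 11.2 CPM in db/m. The db/db animals were mostly lower, with some overlap, and the difference (log2 fold change -1.52, SE 0.55) did not pass adjustment over all peaks (edgeR adjusted p = 0.117; exact permutation p = 0.00866). The histidine transfer RNA mt-Th gave a log2 fold change of -0.62 (edgeR adjusted p = 0.153). The ribozymes Rmrp and Rpph1 held 8 and 37 IP reads, too few to compare.

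The ratio of IP to RNA-seq reads was expressed as log2 of CPM over CPM, scaled so that the typical peak of the table lies at about 0. Among the 219 noncoding peaks with at least 50 RNA-seq reads the median was 0.13, beside -0.05 for 3961 coding peaks and 0.00 for all rows. Medians were 0.10 over 137 NMD, 0.09 over 55 antisense and 0.44 over only 14 TEC peaks. The quartiles of the TEC peaks were -0.60 and 1.05. Since the authors chose peaks by this contrast, the ratios are given as a description. The 7SL copy Rn7s6 was highest at 2.93 ± 0.39 (SD, n = 11 animals), and Rn7s2 and Rn7s1 stood at 2.44 and 2.38. Gm44732 over Cdkn1c stood at 2.75, Gm17092 at 2.36, the TEC peak in Dleu2, a microRNA host gene, at 2.14 and Cdk19os at 2.11. The lowest were 1500015A07Rik at -4.59, Gm24514 at -2.42, Sergef at -1.72 and Mrpl20, a mitochondrial ribosomal protein gene, at -1.53. Over the same 219 peaks, the median was 0.14 in db/db and 0.11 in db/m.

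Between genotypes, the noncoding peaks centred on no change. The median log2 fold change of db/db over db/m was 0.01 for IP and -0.07 for RNA-seq, beside 0.00 and -0.01 over all rows. A peak was called when its edgeR adjusted p was under 0.05 and its log2 fold change over 1 in size. In IP reads 13 of 589 noncoding peaks (2.21%) were called, against 3.32% of all rows. In RNA-seq reads 20 (3.40%) were called, against 3.95% of all rows. Of the noncoding peaks, 3 (0.509%) were called higher in db/db IP libraries and 10 (1.70%) lower, beside 1.59% and 1.72% among all rows. In RNA-seq 8 (1.36%) were called higher and 12 (2.04%) lower, beside 1.98% and 1.97% among all rows. Without the fold threshold, 22 noncoding peaks (3.74%) passed in IP and 39 (6.62%) in RNA-seq, beside 6.45% and 11.3% among all rows. The values of the genotypes did not overlap in 24 noncoding peaks (4.07%) in IP and in 24 in RNA-seq, beside 5.77% and 7.89% among all rows.

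By depth, all 13 IP calls fell among the 301 noncoding peaks with at least 50 IP reads (4.32%), and none among the 288 below, where 52 passed an unadjusted p under 0.05 with the fold threshold. DESeq2 also called 0 of them, but gave no adjusted p for 224. Coding peaks of all depths were called in 221 of 6061 (3.65%) in IP and 262 (4.32%) in RNA-seq. Of these coding peaks 25.1% held fewer than 50 IP reads, and their calls were not split by depth. By class, 8 of 180 NMD peaks (4.44%) were called in IP, all lower in db/db, and 5 of 193 antisense peaks (2.59%), 3 higher and 2 lower. Among all rows 3.32% were called in IP, with 1.72% lower in db/db. No TEC, other long noncoding RNA, small RNA or pseudogene peak was called in IP by edgeR, where 24, 9, 5 and 1 had an unadjusted p under 0.05 and DESeq2 called 2, 1, 0 and 0, with no adjusted p for 94, 18, 3 and 3. In RNA-seq 9 NMD peaks (5%) were called, 2 higher and 7 lower, and 8 antisense peaks (4.15%), 4 higher and 4 lower. The TEC, other long noncoding and small RNA peaks had 1 RNA-seq call each. Among all rows 3.95% were called in RNA-seq. Differences between classes were not tested. Together 24 peaks of 22 genes were called in some comparison. In 10 of them both IP and RNA-seq were called, always in the same direction. On the RefSeq map, 16 of the 24 lay on a gene of another name.

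**Figure D4:**
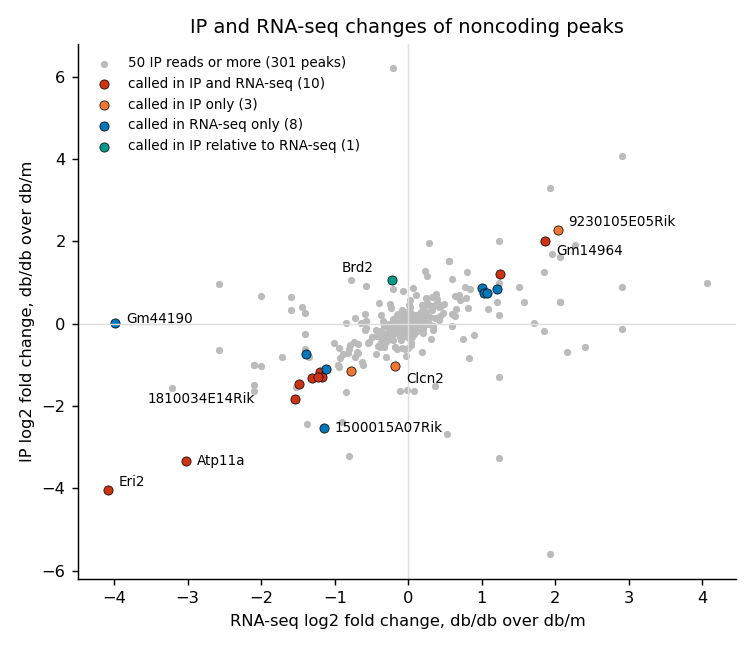
Log2 fold change of db/db over db/m in IP reads (y axis) against RNA-seq reads (x axis) for the 301 noncoding peaks with at least 50 IP reads (points), coloured by the comparison in which a peak was called. The 10 peaks called in both, such as Eri2 (-4.04 and -4.08) and Gm14964 (2.01 and 1.86), moved the same way in both.

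Among called peaks, the largest fall lay in an NMD peak of Eri2, an exoribonuclease gene, at chr7:119784245-119784425 on the minus strand. In IP, db/db animals ranged from 4.32 to 19.8 CPM with a median of 16.7, and the db/m animals had 244, 200, 214, 257 and 266 CPM. In RNA-seq, db/db ranged from 4.57 to 54.2 with a median of 30.4, and db/m animals had 521, 524, 414, 535 and 599 CPM. Every db/db animal lay far below every db/m animal in both. The log2 fold change was -4.04 in IP (SE 0.29, edgeR adjusted p = 1.3e-07) and -4.08 in RNA-seq (SE 0.34, edgeR adjusted p = 2.3e-07). The opposite strand of this site belongs to Acsm3, which encodes a mitochondrial medium-chain acyl-CoA synthetase. The single Acsm3 row, chr7:119784302-119784451 on the plus strand, changed by -4.02 in IP and -4.06 in RNA-seq. It held 10650 IP reads beside 11761 in the Eri2 peak, and no coding row of Eri2 was listed, so Eri2 and Acsm3 cannot be told apart here.

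**Figure D5:**
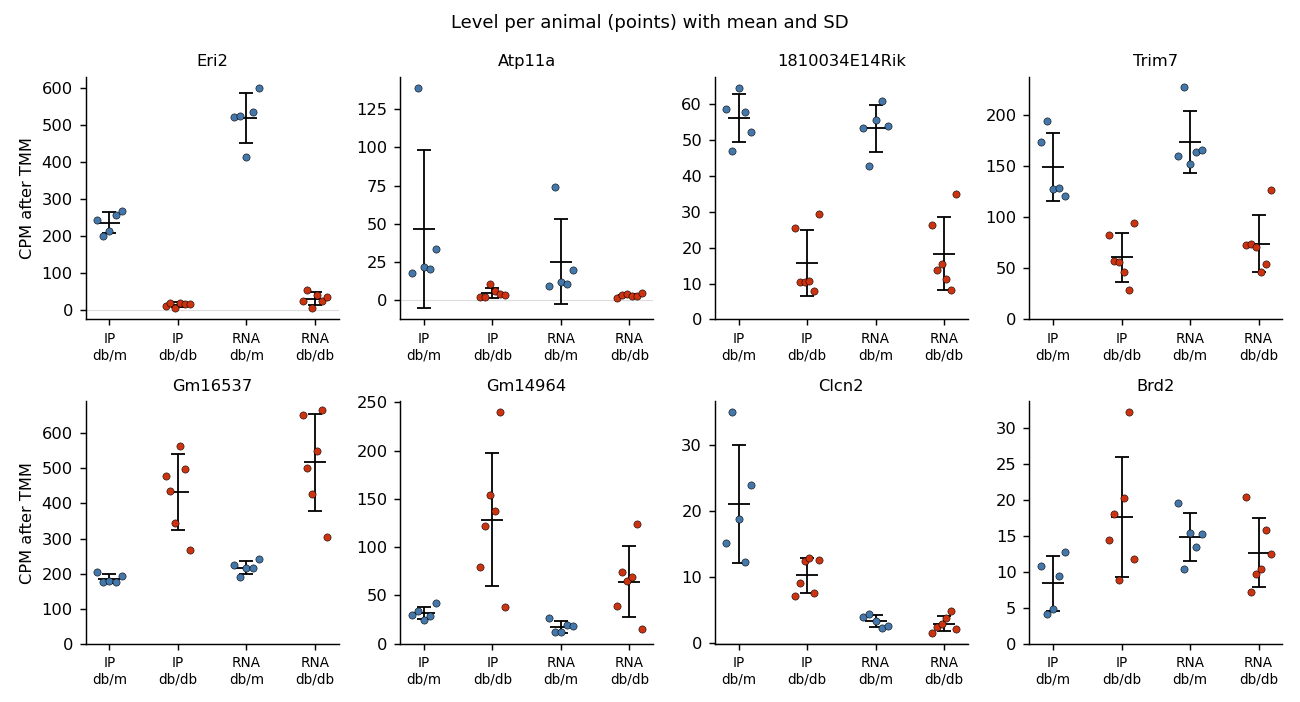
CPM of each animal (y axis; points, with mean and SD) for 8 called noncoding peaks, in IP and RNA-seq libraries (x axis) of db/m (blue) and db/db animals (red). The Eri2 peak holds 4.32 to 19.8 CPM in db/db IP libraries and 200 CPM or more in db/m, and Gm16537 lies higher in each db/db animal than in any db/m animal.

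A pair of NMD peaks in Smarca2, which encodes the chromatin remodelling ATPase BRM, was lower in db/db. The peak at chr19:26771599-26776154 held 396 ± 64.6 CPM in db/db IP libraries (SD, n = 6) and 887 ± 103 in db/m (SD, n = 5). It changed by -1.16 in IP (SE 0.14, edgeR adjusted p = 1.92e-05) and -1.20 in RNA-seq (SE 0.13, edgeR adjusted p = 3.58e-06). The peak at chr19:26751147-26752023 ranged from 104 to 164 CPM in db/db IP with a median of 156, while db/m animals had 407, 396, 363, 389 and 431 CPM. No value overlapped. It changed by -1.46 in IP and -1.48 in RNA-seq (SE 0.14 and 0.13). The 4 protein coding rows of Smarca2 changed by -1.43 to -2.27 in IP and by -1.48 to -2.21 in RNA-seq. The coding row at chr19:26751844-26751993 lies wholly within the NMD peak at chr19:26751147-26752023 on the same strand. It held 22609 IP reads beside 26171, so coding and NMD reads cannot be told apart there. The coding rows at chr19:26710666-26747732 and chr19:26716185-26747762 overlap each other.

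The E3 ligase gene Trim7 and its antisense neighbour Gm16170 were both lower in db/db. The Trim7 NMD peak, chr11:48837953-48845607 on the plus strand, ranged from 28.8 to 94.6 CPM in db/db IP libraries with a median of 56.8, and db/m animals had 174, 195, 128, 129 and 121 CPM. The lowest db/m animal lay above the highest db/db animal. Its log2 fold change was -1.29 in IP (SE 0.24, edgeR adjusted p = 0.00255) and -1.23 in RNA-seq (SE 0.20, edgeR adjusted p = 0.000323). The Gm16170 peak inside it, chr11:48845435-48845584 on the minus strand, changed by -1.30 in IP (SE 0.28, edgeR adjusted p = 0.00813) and -1.18 in RNA-seq. It lies wholly within the Trim7 NMD peak on the other strand, and the reads of both cannot be told apart there. A second Gm16170 peak was called in RNA-seq alone at -1.39 (SE 0.29, edgeR adjusted p = 0.00287). The 2 coding rows of Trim7 changed by -0.92 and -1.05 in RNA-seq.

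The NMD peak of the phospholipid flippase gene Atp11a, whose bases are capitalised in the Gm33587 window, ranged from 1.69 to 10.6 CPM in db/db IP libraries with a median of 3.71. The db/m animals had 18, 139, 21.6, 20.2 and 33.7 CPM. All db/m animals were above all db/db animals, and db/m animal 2 was several times the others. The log2 fold change was -3.34 in IP (SE 0.56, edgeR adjusted p = 0.000903) and -3.02 in RNA-seq (SE 0.51, edgeR adjusted p = 0.000498). Without db/m animal 2 it was -2.35 and -2.05, and still called.

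The Tmem25 NMD peak, chr9:44798978-44799217 on the minus strand, overlaps the window shown above. It ranged from 8.04 to 17.4 CPM in db/db IP libraries with a median of 14.6, and db/m animals had 15.8, 50.8, 34.2, 22.7 and 44.9 CPM. The lowest db/m animal lay within the db/db range. It changed by -1.31 in both IP and RNA-seq (SE 0.30 in both, edgeR adjusted p = 0.0108 and 0.0064). The Acsm5 peak, chr7:119528636-119530474, in a gene of the Acsm3 family, held 16.7 ± 5.68 CPM in db/db IP libraries and 37.2 ± 6.68 in db/m (SD, n = 6 and 5). It changed by -1.15 in IP (SE 0.24, edgeR adjusted p = 0.00643) and by -0.78 in RNA-seq (SE 0.20, edgeR adjusted p = 0.0158), under the fold threshold there.

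Among antisense peaks, 1810034E14Rik was lower in db/db. Its peak at chr13:64249084-64267054 on the plus strand spans 17971 bases opposite Cdc14b, a phosphatase gene without a protein coding row. The db/db animals ranged from 7.82 to 29.3 CPM in IP with a median of 10.6, and db/m animals had 58.6, 47.1, 64.7, 58 and 52.3 CPM, with no overlap. It changed by -1.84 in IP (SE 0.31, edgeR adjusted p = 0.000889) and -1.54 in RNA-seq (SE 0.27, edgeR adjusted p = 0.000594).

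The antisense peaks higher in db/db began with Gm16537, chr15:99715835-99724474 on the minus strand, at Gpd1. Gpd1 encodes the cytosolic glycerol-3-phosphate dehydrogenase. The Gm16537 peak ranged from 268 to 565 CPM in db/db IP libraries with a median of 457, and db/m animals had 204, 177, 180, 176 and 193 CPM. All db/db animals were higher. It changed by 1.22 in IP (SE 0.17, edgeR adjusted p = 0.00014) and 1.25 in RNA-seq (SE 0.17, edgeR adjusted p = 4.47e-05). The 4 Gpd1 rows on the plus strand changed by 1.11 to 1.23 in IP and 1.19 to 1.34 in RNA-seq. All 4 overlap the Gm16537 peak, and some of them also overlap each other. The row at chr15:99720659-99722470 lies wholly within the peak and held 14047 IP reads beside 31489. The reads of Gm16537 and Gpd1 cannot be told apart where they overlap.

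Gm14964, chr19:6531178-6531894 on the minus strand, lies in the locus of the synaptic adhesion gene Nrxn2. Its IP values ranged from 38.1 to 239 CPM in db/db with a median of 130, and were 30.2, 33.6, 24.3, 29 and 42 CPM in db/m. The lowest db/db animal overlapped the db/m range. It changed by 2.01 in IP (SE 0.33, edgeR adjusted p = 0.000762) and 1.86 in RNA-seq (SE 0.37, edgeR adjusted p = 0.00203). An Nrxn2 coding row at chr19:6542762-6542822 changed the other way, by -1.01 in IP and -1.21 in RNA-seq, and the other 3 Nrxn2 rows passed no threshold.

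The peak of 9230105E05Rik, chr10:120389523-120389809, opposite the chromatin protein gene Hmga2, was called in IP alone. Its support as a peak was weak, with a false discovery rate of 0.351 from the authors' peak caller. It ranged from 2.37 to 17.5 CPM in db/db with a median of 6.65, and was 2.24, 1.27, 1.87, 1.31 and 1.45 CPM in db/m, with no overlap. The log2 fold change was 2.29 (SE 0.49, edgeR adjusted p = 0.00737). Only 27 RNA-seq reads over 11 animals fell in it, and there the change was 2.03 (SE 0.79, edgeR adjusted p = 0.113). Whether its IP and RNA-seq changes differ was not detectable at this depth.

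Calls in RNA-seq without a call in IP included Gm44732, opposite Cdkn1c. In RNA-seq it ranged from 57.3 to 99 CPM in db/db with a median of 78.9, and was 45.2, 30.2, 34.4, 29.4 and 31.1 CPM in db/m. No value overlapped, and it changed by 1.21 (SE 0.16, edgeR adjusted p = 3.34e-05). In IP it changed by 0.84 (SE 0.22, edgeR adjusted p = 0.0283), under the fold threshold, with db/m animal 2 at 482 CPM inside the db/db range of 400 to 701 CPM. The largest Cdkn1c row changed by 1.22 in RNA-seq and 0.84 in IP.

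Other RNA-seq calls higher in db/db were the NMD peak of Pmm1, a phosphomannomutase gene, at 1.01 (SE 0.16, edgeR adjusted p = 0.000216), and Gm14493 over Mid1ip1, a regulator of fatty acid synthesis, at 1.07 (SE 0.22, edgeR adjusted p = 0.00306). Pmm1 fell below the fold threshold without any 1 of db/db animal 5 or db/m animals 2, 3 and 5, but its log2 fold change stayed at 0.93 to 1.09 and its adjusted p at 0.00147 or less over 16 alternatives. Gm14493 did so without db/db animal 5 and stayed at 0.99 to 1.21, with an adjusted p of 0.0117 or less. The small Cajal body RNA Scarna17 changed by 1.03 (SE 0.27, edgeR adjusted p = 0.0175) and lost the call when db/db animal 1, db/db animal 5, db/m animal 2 or db/m animal 5 was left out, with log2 fold changes of 0.84 to 1.15 over all alternatives. An NMD peak of Gpnmb, a lysosomal membrane glycoprotein gene, changed by 2.84 (SE 0.84, edgeR adjusted p = 0.0354) on 25 reads and lost the call without any 1 of 6 animals, with a log2 fold change of 2.33 without db/db animal 3.

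Other falls called in RNA-seq alone included 1500015A07Rik at -1.15 (SE 0.23, edgeR adjusted p = 0.002) and an NMD peak of Chpt1, a choline phosphotransferase gene, at -1.12 (SE 0.31, edgeR adjusted p = 0.022). The first fell just under the fold threshold without db/m animal 1, at -0.97, with an adjusted p of 0.00736 or less over 16 alternatives. The Chpt1 peak lost its call without db/db animal 4 or db/m animal 2, at -0.75 to -1.32 over all alternatives. A deeper Chpt1 NMD peak changed by -0.89 in RNA-seq (edgeR adjusted p = 9.69e-05) and -0.73 in IP (edgeR adjusted p = 0.0374). The Chpt1 coding rows had log2 fold changes of -0.41 and -0.36, with neither passing adjustment. At the limit of depth, Gm44005 held 14 RNA-seq reads in 5 of 6 db/db animals and none in db/m, at least 3.88-fold higher against a floor of 3 reads over the db/m group (edgeR adjusted p = 0.0291). Gm44190 held 9 reads in 4 of 5 db/m animals and none in db/db, at least 3.61-fold lower in db/db by a floor of 3 reads over the db/db group (edgeR adjusted p = 0.0317). Both folds are from reads over library totals without TMM scaling. Gm44005 lost its call in 7 of 15 alternatives and Gm44190 in 8 of 15, both with the replicate number as a block and the latter also by DESeq2, and the direction was the same in all of them.

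Noncoding peaks that passed adjustment under the fold threshold numbered 9 in IP (1.53%), 6 higher and 3 lower in db/db, and 19 in RNA-seq (3.23%), 7 higher and 12 lower. Among all rows, 3.13% did so in IP and 7.32% in RNA-seq. The lower ones in IP were Irx3os, antisense to the transcription factor gene Irx3, at -0.81 (edgeR adjusted p = 0.00219), RP23-444K20.5 at -0.94 (edgeR adjusted p = 0.0142) and the deeper Chpt1 peak. Among the higher ones, the NMD peak of Dbi, the acyl-CoA binding protein, held 114052 IP reads and changed by 0.70 in IP and 0.68 in RNA-seq (edgeR adjusted p = 0.0368 and 0.019). A pair of peaks named Dvl2 lay on the other strand of Acadvl, the very long-chain acyl-CoA dehydrogenase gene, and changed by 0.85 and 0.89 in IP (edgeR adjusted p = 0.00601 and 0.0345). The first of the pair lies wholly opposite an Acadvl coding row and held 16241 IP reads beside 17030. The reads of Dvl2 and Acadvl cannot be told apart there. The Dvl2 and Dbi values of the genotypes did not overlap in IP. The antisense peak Gm17029 opposite Pex14, a peroxisomal import gene, changed by 0.48 in IP (SE 0.14, edgeR adjusted p = 0.0455).

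IP relative to RNA-seq asks whether antibody recovery changed beyond RNA abundance. By this interaction test, 1 of 589 noncoding peaks (0.170%) was called, against 0.0203% of all rows, which is 2 rows. It was an NMD peak of the bromodomain gene Brd2, chr17:34112173-34112353 on the minus strand. In IP it ranged from 8.89 to 32.3 CPM in db/db with a median of 16.2, and was 10.8, 4.13, 4.83, 9.36 and 12.8 CPM in db/m. In RNA-seq it held 12.7 ± 4.8 CPM in db/db (SD, n = 6) and 19.6, 10.4, 15.4, 13.4 and 15.2 CPM in db/m. The genotypes overlapped in both. The log2 fold change was 1.07 in IP (edgeR adjusted p = 0.0958) and -0.22 in RNA-seq (edgeR adjusted p = 0.589), which gave a relative change of 1.33 (SE 0.30, edgeR adjusted p = 0.0293). The call was lost in 8 of 16 alternatives, among them those without db/db animal 2, 4 or 5 and without db/m animal 2 or 3, with a relative log2 fold change of 1.15 to 1.53 and an edgeR or limma adjusted p between 0.00433 and 0.708. The deep Brd2 coding rows, chr17:34113714-34114143 and chr17:34112889-34113177, changed by -0.05 and 0.06 in IP.

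The NMD peak of the chloride channel gene Clcn2, chr16:20715998-20716117, was lower in IP without a like change in RNA-seq. In IP it ranged from 7.01 to 12.9 CPM in db/db with a median of 10.7, and was 15.1, 34.9, 18.7, 12.2 and 23.9 CPM in db/m. The lowest db/m animal lay within the db/db range. It changed by -1.04 in IP (SE 0.29, edgeR adjusted p = 0.0421) and -0.17 in RNA-seq (SE 0.32, edgeR adjusted p = 0.777). A coding row of Clcn2 that contains this site, chr16:20715909-20716117, changed by -0.97 in IP and -0.04 in RNA-seq. The relative change of -0.81 of the NMD peak did not pass the interaction test (edgeR adjusted p = 0.734). Its IP call was lost in 8 of 16 alternatives. These included leaving out any 1 of 4 db/db animals (1, 2, 4 and 5) or of 3 db/m animals (2, 3 and 5). Over all 16 alternatives the IP log2 fold change was -0.77 to -1.18.

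Lists of noncoding genes with a known role were matched by the symbol of the row, and edgeR called none of the 13 peaks so matched. Among all rows 3.32% were called in IP and 3.95% in RNA-seq, shares at which few or no calls would fall among 13 peaks. Peaks under another name were not counted, among them Gm37376 at the Malat1 locus and the 7SL copy Rn7s6. DESeq2 called 0 of the 13 matched peaks as well, with no adjusted p for 5 in IP and 7 in RNA-seq. By edgeR, 1 of the 13 had an unadjusted p under 0.05 in IP and 2 in RNA-seq. Of 21 snoRNA host genes 1 had a noncoding peak (Zfas1), of 7 nuclear and X-linked long noncoding RNAs 1 (Tsix), and of 9 imprinted ones 1 (Kcnq1ot1, with 3 peaks). Of 11 microRNA hosts 1 had peaks (Dleu2, 2 peaks), and of 18 growth, stress and p53 transcripts 2 (Kcnq1ot1 and Tug1). Of 9 housekeeping small RNAs 4 were present. None was present of 2 mitochondrial ribosomal RNAs, of 4 listed antisense genes of kidney transcription factors (Hnf1aos1, Hnf1aos2, Hnf4aos and Gata3as) or of the ribosomal protein pseudogenes. Other antisense genes of transcription factors, such as Irx3os, Emx2os and Hoxb3os, did have peaks. Most of these peaks were shallow, with 66 IP reads in Zfas1, 9 in Tsix, and 17, 25 and 25 in the Kcnq1ot1 peaks. The longer Tug1 peak held 212 IP reads, with an IP log2 fold change of -0.54 (SE 0.74, edgeR adjusted p = 0.751), and the deeper Dleu2 peak held 707, with one of -0.15 (SE 0.39, edgeR adjusted p = 0.886).

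Markers of cell types were read from protein coding rows in RNA-seq to describe the tissue. Proximal tubule markers, with rows for 5 of 6 genes and Lrp2 the most abundant, summed to 1418, 1212, 1046, 1183, 974.6 and 2013 CPM in db/db animals 1 to 6. The db/m animals had 2166, 2061, 2151, 2123 and 2089 CPM, so that every db/db animal lay lower, and 4 of the 7 rows had an adjusted p under 0.05. Cubn had no row. Adipocyte markers had rows for 3 of 9 genes, Adipoq, Plin1 and Lpl, with Lpl the most abundant. Their sum was 3.998 to 6.67 CPM in db/db and 67.7, 46.0, 16.7, 70.2 and 12.99 CPM in db/m. The defining genes Plin4, Cidec, Fabp4 and Retn had no row, nor did Car3 and Adrb3. Lung markers were near 0, at 1.28 CPM or less in every animal. Podocyte markers gave 18.8 to 35.7 CPM in db/db and 19.7 to 33.4 in db/m. Thick limb markers, from Slc12a1 alone, gave 264 to 660 CPM in db/db (median 600) and 380 to 670 in db/m (514). Distal tubule and collecting duct markers gave 702 to 1048 CPM in db/db (median 782) and 660 to 907 in db/m (801). Smooth muscle and fibroblast markers, from Myh11 alone, gave 66.4 to 99.4 CPM in db/db (median 77.8) and 44.0 to 113.7 in db/m (52.9). Endothelial markers, with rows for 2 of 3 genes and Kdr the most abundant, gave 17.7 to 38.5 CPM in db/db with a median of 31.3 and 35.6 to 43.4 in db/m with a median of 39.3. The leukocyte list was read from C1qa alone, 1 of its 4 genes, at 3.48 to 36.0 CPM in db/db, highest in animal 3, and 5.07 to 15.3 in db/m. The part of these cell types in the changes of the noncoding peaks was not tested.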

How the data were processed

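Whole kidneys of 6 db/db and 5 db/m mice gave 1 IP and 1 RNA-seq library per animal, assigned to groups from the sample titles. The authors deposited 1 table of peaks with read counts per peak and library, made from cleaned reads aligned to build GRCm38. The aligner, peak caller, counting tool and use of strand are not given in the sources used here. The authors also deposited, for each peak, a fold enrichment of IP over input (a ratio) and the p-value and FDR of the peak caller. Further deposited columns hold the authors' own genotype comparison (log2 fold change, p-value and FDR) and were not used. Starts were counted from 0: after adding 1, 103 peak starts matched a RefSeq gene start, against 8 as given.

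Overlapping noncoding rows were joined as described in the report. All 9857 rows were fitted with edgeR 4.0.16 (glmQLFit and glmQLFTest, TMM, R 4.3.3), two-sided, with p adjusted by Benjamini-Hochberg over all rows, for IP reads, RNA-seq reads and their interaction with a term for each animal. CPM values are after TMM. Means are given with the SD over animals. The exact permutation test ran over the 462 splits of 11 animals on log2(CPM + 1), where the smallest possible p is 0.00216. A prior count of 0.5 was used in log2 ratios of IP to RNA-seq reads. On simulated data 200 of 9857 peaks were changed, all by more than the fold threshold, with a common spread for all peaks. The IP fit recovered 176 (153 of 157 with a mean of 50 reads or more per library, 6 of 21 under a mean of 5). The RNA-seq fit recovered 159 (5 of 41 under a mean of 5) and the interaction 156 (0 of 28). These depths are means per library, unlike the totals over 11 animals by which peaks were divided in the report. False calls among the 9657 unchanged peaks were 10, 0 and 1. Alternatives were DESeq2 1.42.0, limma 3.58.1, other scalings, filters, sets of peaks, replicate blocks and leaving out each animal.

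Named peaks were those called, the largest rises and falls past adjustment, the 3 deepest of each class and those of fixed gene lists. Other genes are named as neighbours, sequence examples or extremes of the ratio, chosen after their values were seen. Members, lists and tests were chosen with earlier results of these data known. Whether kidneys of a genotype came from separate litters was not given. The deviations of db/db and db/m animals with the same number correlated at -0.397 to 0.514 in RNA-seq reads, so numbers were not taken to pair animals between genotypes. The IP and RNA-seq library of 1 animal correlated at 0.201 to 0.772.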

Additional observations from a re-analysis of the deposited data

Results flagged for a closer look

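A sample stood apart from its group by Dixon's test in 5 of 90 groups of values examined, and chance flags about 1 in 20. The gap over range in brackets was computed on log2(CPM + 1) for peaks, although CPM are printed. For shares of reads it was computed on the percentages themselves. In the RNA-seq reads of the Eri2 peak, db/db animal 3 had 4.57 CPM beside 23.4 to 54.2 in the other db/db animals (gap over range 0.644). The other 4 cases were all db/m animal 2. It had 105.9 CPM in RNA-seq reads of the Gm16170 peak at chr11:48845435-48845584 beside 79.3 to 84.9 (0.762), and 227.5 CPM in those of the Trim7 peak beside 152 to 166 (0.779). It had 1.38% of IP reads in NMD peaks beside 1.16% to 1.21% (0.757). It had 0.0156% of RNA-seq reads in small RNA peaks beside 0.025% to 0.0284% (0.740).

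The Brd2 NMD peak was flagged because its change between genotypes differed between IP and RNA-seq reads by the edgeR interaction test, with a relative log2 fold change of 1.33 (SE 0.30, edgeR adjusted p = 0.0293).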

How the results depend on the processing

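No called peak changed direction in the alternatives run. Of 589 noncoding peaks, 13 were called in IP reads, and the count was 12 to 17 with 1 animal left out. It was 21 with the replicate number as a block, 20 by DESeq2, 22 without the fold threshold, 82 at an unadjusted p under 0.05 with the fold threshold and 8 among peaks of at most 1000 bases. In RNA-seq reads 20 were called, 14 to 24 with 1 animal left out, 20 with the replicate block, 39 without the fold threshold, 56 at an unadjusted p with the fold threshold and 13 among peaks that overlap no coding row. For IP relative to RNA-seq, 1 peak was called, 0 to 1 with 1 animal left out. It was 0 with filterByExpr, 0 in the edgeR fit without a replicate block for the animal and 0 by limma-trend, where 30 passed an unadjusted p with the fold threshold in the main edgeR fit. The median log2 ratio of IP to RNA-seq over all 589 peaks was 0.27, and it was 0.31 without TMM, 0.15 with a prior count of 2 and 0.31 among peaks that overlap no coding row. The restricted sets held fewer peaks; the cause of the other shifts was not tested. Counts under 50 IP reads limit 288 of the peaks, where no IP call was made, and the interaction fit used 1 trend of spread for all peaks.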
